A study of Mus musculus with 21 samples.

Results

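The comparison described here set multipotent progenitors (MPP) against long-term haematopoietic stem cells (LT-HSC) in mice with a knockout of the retinoid X receptor genes Rxra and Rxrb aimed at blood cells, and was made on 6 of the 21 RNA-seq libraries of the study. The members were the 3 LT-HSC and the 3 MPP libraries of the first batch that carried the knockout numbers 1, 4 and 5, chosen by their column names. The knockout genotype was VaviCre+Rxrabfl/fl, in which an iCre under the Vav promoter, active in blood cells, acted on floxed alleles of Rxra and Rxrb. The reference group was 3 LT-HSC and 3 MPP libraries of the same batch from floxed controls, Rxrabfl/fl without Cre, so both genotypes carried the floxed alleles and differed in the Cre. LT-HSC and MPP were sorted from lineage-negative bone marrow, the MPP gate took the fractions MPP3 and MPP4 together, each library came from pooled animals, and no age, stimulus or drug was named for these groups. From 5 ng of RNA, complementary DNA was amplified (Ovation RNA-seq v2) and made into paired-end Nextera XT libraries. Levels are given as TPM, a length-corrected share of a library's transcripts, and values are always listed in the order of knockouts 1, 4 and 5 or of control libraries 1, 2 and 3.

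LT-HSC are the rare, mostly quiescent cells that can rebuild the whole blood system, and MPP3 and MPP4 are their more proliferative offspring with a myeloid and a lymphoid lean. RXR proteins are nuclear receptors that bind DNA in pairs with partner receptors such as the retinoic acid, liver X, peroxisome proliferator-activated and vitamin D receptors. The question asked of these libraries was which stem-to-progenitor differences were present in the RXR knockout, as measured against the same step in the floxed controls.

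The markers of both gates were where their labels put them in all 6 knockout libraries. Slamf1, which encodes the stem cell antigen CD150 (ENSMUSG00000015316, chr1:171767131-171801184 in GRCm38), was at 30.9, 29.6 and 39.3 TPM in LT-HSC and at 0.768, 0.423 and 0.519 TPM in MPP. Cd48, an antigen gained as stem cells differentiate (chr1:171681245-171705258), was at 0.94, 2.2 and 1.84 TPM in LT-HSC and at 112, 95.1 and 110.4 TPM in MPP. The 2 genes moved in opposite directions with no overlap between cell types, by -4.44 ± 0.23 (SE) and 5.35 ± 0.29 on the log2(TPM + 1) scale, with limma adjusted p = 6.2e-09 and 1.1e-08. Flt3, the cytokine receptor that marks lymphoid-primed progenitors (chr5:147330741-147400489), was at 2.05, 3.63 and 1.77 TPM in LT-HSC and 67.7, 82.1 and 72 TPM in MPP, a log2 difference of 4.46 ± 0.26 (adjusted p = 2.3e-08). Dntt, the template-free polymerase of early lymphoid cells (chr19:41029275-41059525), was at 0.0699, 0.365 and 0.237 TPM in LT-HSC and 133, 100.3 and 122 TPM in MPP, a log2 difference of 6.61 ± 0.20 (adjusted p = 2.8e-11). In the floxed controls the log2 differences of these markers were -3.21, 5.12, 4.30 and 7.11, and none of the 4 passed the test of the difference between genotypes (limma adjusted p for the genotype-by-cell-type term 0.093, 0.69, 0.77 and 0.24).

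**Figure D1:**
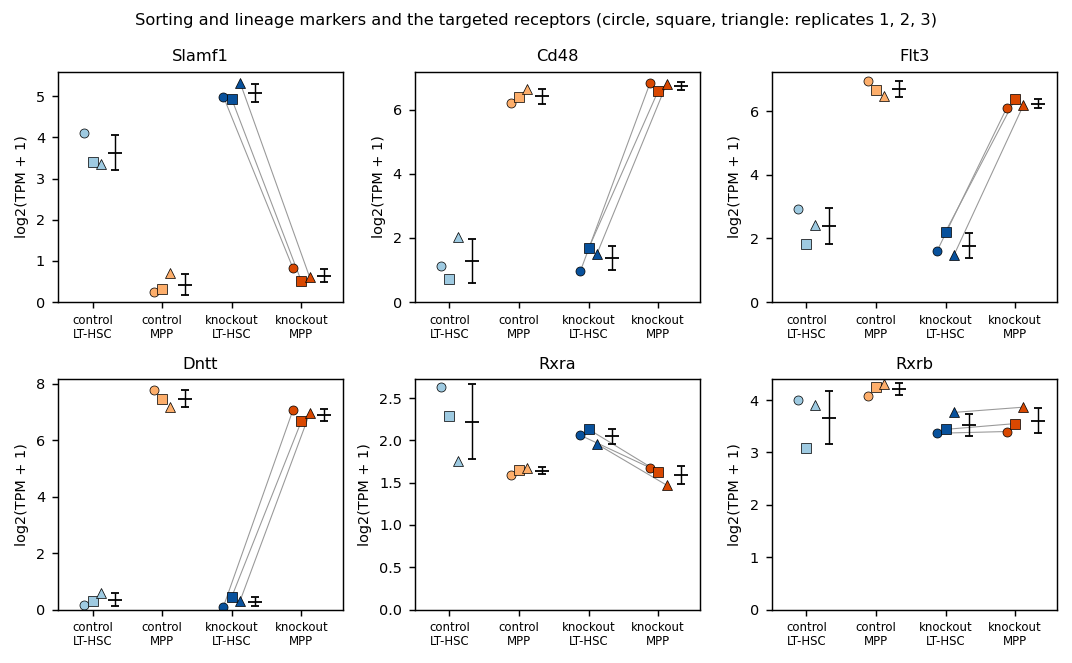
Each panel plots log2(TPM + 1) of 1 gene in the 12 libraries of the first batch, with LT-HSC and MPP of both genotypes on the horizontal axis, bars for the mean and SD of 3 libraries, and grey lines joining knockout libraries of the same number. Slamf1 was high in LT-HSC and Cd48, Flt3 and Dntt in MPP, Rxra was lower in each knockout MPP library than in each knockout LT-HSC library without passing the test, and the Rxrb values of the knockout cell types overlapped.

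The targeted genes kept mapped reads in the knockout libraries, so their gene-level TPM is a weak check of the deletion. Rxra (ENSMUSG00000015846, chr2:27676445-27763319) was at 3.17, 3.38 and 2.88 TPM in knockout LT-HSC and 2.2, 2.09 and 1.77 TPM in knockout MPP, against 5.17, 3.87 and 2.37 and 2.02, 2.14 and 2.19 TPM in the control cells. Rxrb (chr17:34031812-34038403) was at 9.3, 9.85 and 12.6 TPM in knockout LT-HSC and 9.55, 10.7 and 13.6 TPM in knockout MPP, against 14.9, 7.52 and 14 and 15.8, 18 and 18.8 TPM in the controls. The ranges of the genotypes overlapped for both genes in LT-HSC, and neither gene passed the test between knockout MPP and LT-HSC (adjusted p = 0.14 and 0.85), although the cell types did not overlap for Rxra, which passed when the 6 knockout libraries were fitted alone with same-numbered libraries paired (adjusted p = 0.027). The splicing file gave a direct reading for Rxra: the junction that skips an exon, chr2:27741203-27748612, had a percent-spliced-in value (PSI, from 0 to 1) of 0.938 in LT-HSC of knockout 1, 1 in MPP of knockout 1 and 0.5 in MPP of knockout 5. The other 3 knockout libraries had no value there, and the control values were 0 except for 0.1 in 1 LT-HSC library.

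Of the 14839 genes that reached 1 TPM in 3 or more of the 12 libraries, 2889 differed between knockout MPP and knockout LT-HSC at a limma adjusted p under 0.05, which was 19.5% of those tested (4702 genes, 31.7%, had an unadjusted p under 0.05). Of the 2889 genes, 592 were higher in MPP (3.99% of all tested) and 2297 were lower (15.5%). The split depended on the scale: after each library was divided by its median-of-ratios size factor, 1724 genes were higher (11.6%) and 1680 lower (11.3%), and the median log2 difference over all genes moved from -0.21 to 0.03. Counts below are on the deposited scale unless called rescaled, and 589 higher and 1677 lower genes passed on both. Pairing libraries of the same number in the fit gave 749 higher (5.05%) and 3103 lower genes (20.9%). Without the LT-HSC library of knockout 5 the count of 2889 became 1825 and the rescaled count of 3404 became 2142, and the rescaled count was 2061 without both libraries of knockout 1. The 3 libraries of the cell types did not overlap for 1517 higher genes (10.2%) and 4442 lower genes (29.9%). The knockout size factors ran from 1.07 to 1.41 in LT-HSC and from 0.931 to 1.12 in MPP, so dividing by them lowered LT-HSC more than MPP. One identifier, ENSMUSG00000089855, which has no symbol in the table of gene names, held 15.6 to 20.8% of the TPM in knockout LT-HSC, 20.2 to 22.6% in knockout MPP and up to 51.8% in floxed control LT-HSC library 2, the library furthest from the others by this share. Nothing in the labels says that the libraries of a group came from separate pools of animals, so the p-values measure the spread between these libraries.

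Markers of other cell types differed between the gates and between libraries, and their part in the results below was not tested. Mature neutrophil transcripts summed to 135 to 1400 TPM in knockout LT-HSC and 97.7 to 643 TPM in knockout MPP, against 30.8 to 64.9 TPM over all control libraries, with S100a8 at 55.7, 162 and 565 TPM in LT-HSC and 32.9, 102 and 247 TPM in MPP. In both gates the library of knockout 5 had the highest S100a8 value and that of knockout 1 the lowest, and 1 of 12 tested neutrophil markers rose (0 without the MPP library of knockout 5), none fell, and 3 fell when same-numbered libraries were paired. B cell markers summed to 385 to 917 TPM in knockout LT-HSC and 746 to 6170 TPM in knockout MPP, mostly from the immunoglobulin light chain gene Igkc, which was at 854, 346 and 435 TPM in LT-HSC and 5046, 1519.9 and 503 TPM in MPP (adjusted p = 0.41). T and NK cell markers summed to 34.2 to 49.0 TPM in knockout LT-HSC and 99.9 to 120 TPM in MPP, with Gzma, Klrd1, Ncr1 and Tbx21 listed at 0 in all 3 knockout LT-HSC libraries, and 5 of 12 tested rose and 1, the NK receptor Klrb1c, fell. Monocyte, macrophage and dendritic cell markers summed to 371 to 425 TPM in LT-HSC and 523 to 587 TPM in MPP, with 6 of 17 tested rising and 1 falling, and erythroid markers to 341 to 537 TPM and 180 to 223 TPM. Eosinophil, basophil and mast cell markers summed to 125 to 188 TPM in LT-HSC and 95.9 to 109 TPM in MPP, with Tpsab1 listed at 0 in all 6 knockout libraries, and endothelial and stromal markers to 51.3 to 63.7 TPM and 55.8 to 67.4 TPM, with Col3a1 listed at 0 in all 6 knockout libraries. Of 7 tested endothelial and stromal genes 4 fell and 1 rose, and 2 fell without the LT-HSC library of knockout 4 or the MPP library of knockout 1. Beside the counts of these marker lists, 3.99% of all genes rose and 15.5% fell. The marker lists share members with the lymphoid and myeloid priming lists described below. These include Flt3, Csf1r and Ly6c2 among the monocyte, macrophage and dendritic cell markers, and Lck and Nkg7 among the T and NK cell markers. Ighm, Igkc, Pax5 and Ebf1 are such members among the B cell markers. Their sums and counts are thus no separate reading of other cells in the gates. In bulk libraries a smaller number of cells of a type and less RNA per cell cannot be told apart.

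The 10 largest decreases from knockout LT-HSC to knockout MPP were those of Slamf1 and 9 genes of varied function. Vwf, the von Willebrand clotting factor carried by platelets and platelet-biased stem cells, was at 104, 103 and 132 TPM in LT-HSC and 4.13, 5.57 and 5.46 TPM in MPP, a log2 difference of -4.23 ± 0.24. Tgm2, a transglutaminase, was at 46.7, 46.5 and 47.7 TPM in LT-HSC and 1.66, 2.14 and 1.59 TPM in MPP. Clip3, which encodes a microtubule-associated linker protein, went from 22.1, 19.3 and 22.7 TPM to 0.0248, 0.0583 and 0.505 TPM. Every LT-HSC library was above every MPP library for these 3 genes, by at least an order of magnitude. The other 6 of the 10 largest decreases were Sult1a1 (a sulfotransferase, -4.22), Clca3a1 (-4.14), Cavin2 (a caveolar coat protein, -4.10), Neo1 (the netrin receptor neogenin, -4.08), Clu (the chaperone clusterin, -3.99) and Mmrn1 (a platelet granule protein, -3.97), and the limma adjusted p of all 10 was at most 1.7e-07.

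The 10 largest increases from knockout LT-HSC to knockout MPP held Dntt, Cd48 and Flt3, immunoglobulin genes, a pair of granule genes, a chemokine gene and a predicted gene. Ccl3, an inflammatory chemokine, was at 7.07, 5.13 and 6.82 TPM in LT-HSC and 491, 373 and 193 TPM in MPP, a log2 difference of 5.50 ± 0.45 (adjusted p = 5.7e-07). Mpo, the myeloperoxidase of primary granules, was at 25.5, 78.3 and 64.3 TPM in LT-HSC and 1250.1, 888 and 1392 TPM in MPP, a log2 difference of 4.49 ± 0.44 (adjusted p = 3.5e-06), and Ctsg, the granule protease cathepsin G, differed by 4.81. BC035044, a predicted gene, was at 0.306, 0.627 and 0.696 TPM in LT-HSC and 40.3, 37.3 and 45.1 TPM in MPP, with all 3 pairs nearly the same. The immunoglobulin heavy chain genes were high in MPP, and Ighm and Ighj3 were uneven between libraries. Ighm was at 21.8, 0.493 and 8.15 TPM in LT-HSC and 959, 119 and 145 TPM in MPP (5.24, adjusted p = 0.00047). The joining segment Ighj3 was at 2.52, 3.98 and 49.1 TPM in LT-HSC and 419.7, 133 and 131 TPM in MPP (4.35, adjusted p = 0.00084). Ighj2 was listed at 0 in the 3 LT-HSC libraries and at 38.6, 19.4 and 24.5 TPM in MPP. Reads of neighbouring immunoglobulin segments can be shared between them, so the split of their levels is uncertain.

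**Figure D2:**
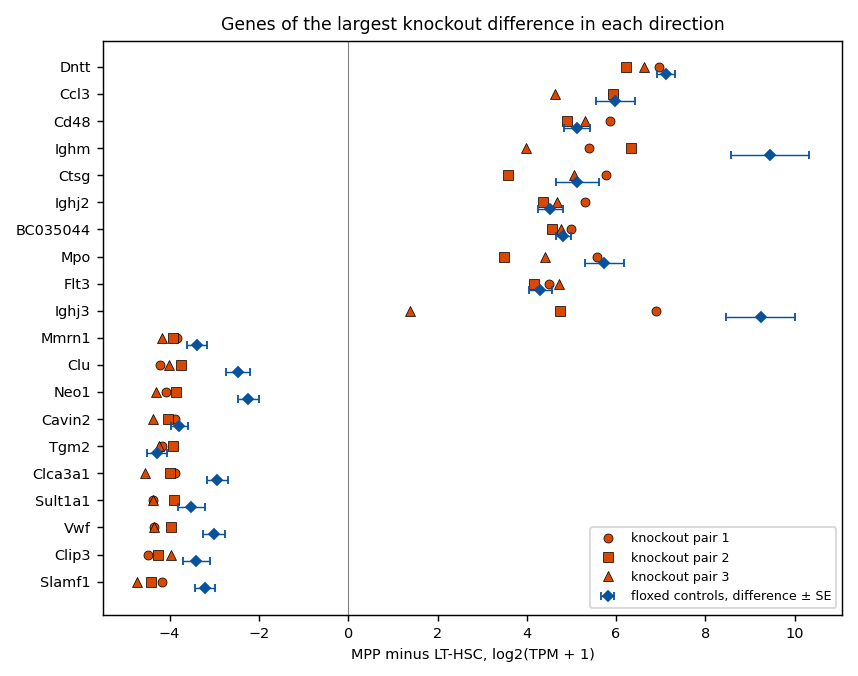
Points give the log2(TPM + 1) difference of MPP minus LT-HSC on the horizontal axis for each of the 3 same-numbered knockout pairs, and a marker with a bar gives the floxed control difference and its standard error, for the 10 genes with the largest decrease and the 10 with the largest increase in the knockouts. The 3 knockout pairs of each gene lie on the same side of 0, and the pairs of Ighj3 and Ighm spread more widely than those of Mpo, Ccl3 and Ighj2.

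The stem cell list was lower in knockout MPP nearly throughout. Of 51 tested LT-HSC identity genes, 41 fell and none rose, with a list median of -1.88 on the deposited scale, against -0.21 for all genes. Rescaled, 37 fell and the median was -1.61. Mllt3, a regulator of transcription elongation that sustains stem cells, was at 176, 159 and 186 TPM in LT-HSC and 17.9, 19.9 and 16.2 TPM in MPP (-3.21 ± 0.21, adjusted p = 5.7e-08). Mecom, which encodes the stem cell transcription factor EVI1, was at 136, 191 and 193 TPM in LT-HSC and 39.2, 43.7 and 43.8 TPM in MPP (-1.99 ± 0.22, adjusted p = 1.2e-05). Aldh1a1, which makes retinoic acid from retinal, fell from 139.6, 120.4 and 129.8 TPM to 8.62, 7.51 and 7.07 TPM. Procr, the stem cell surface receptor EPCR, fell from 62.5, 55.2 and 74.8 TPM to 8.8, 12.2 and 9.98 TPM. Ly6a, which encodes the surface antigen Sca-1, did not pass, with a log2 difference of -0.83 ± 0.31 (adjusted p = 0.078), nor did Thy1 with 0.08 ± 0.21 (adjusted p = 0.84).

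Megakaryocyte and erythroid priming genes were lower as well. Of 29 tested, 25 fell and none rose on the deposited scale and 24 fell rescaled, with list medians of -1.49 and -1.26. The shares of all genes called lower were 15.5% as deposited and 11.3% rescaled. Pf4, the platelet chemokine, was at 209, 279 and 268 TPM in LT-HSC and 20.9, 20.2 and 15.7 TPM in MPP. The platelet receptors Treml1 (-2.64) and Gp1ba (-1.80) and the transcription factor Gata2 (-1.90) fell too. Of the 16 tested erythroid cell markers 4 fell, which became 7 when same-numbered libraries were paired and 7 without the LT-HSC library of knockout 1. Epor, the erythropoietin receptor, was among them (7.88, 10.6 and 9.99 TPM in LT-HSC, 1.48, 1.43 and 1.47 TPM in MPP), while Klf1, the master erythroid regulator, had a log2 difference of -0.68 ± 0.47 that did not pass (adjusted p = 0.36).

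Hox cluster genes and their cofactors fell together. Of 18 tested, 16 fell and none rose, with a median of -1.23, and rescaled 15 fell with a median of -0.99, against medians of -0.35 and -0.58 in the controls, where 4 fell as deposited and 8 rescaled. The shares of all genes called lower as deposited were 15.5% in the knockouts and 5.62% in the controls. Hoxb5, a marker of long-term stem cells, was at 5.69, 6.11 and 9.24 TPM in knockout LT-HSC and 0.196, 0.568 and 0.471 TPM in MPP (-2.49 ± 0.25, adjusted p = 4e-06). Hoxb6 was at 4.26, 5.49 and 10.8 TPM in LT-HSC and 0.407, 0.262 and 0.458 TPM in MPP. The cofactor Meis1 was at 128, 173 and 172 TPM in LT-HSC and 60.1, 80 and 69.4 TPM in MPP, and Pbx3, another cofactor, differed by -1.54. Hoxa9 and Hoxa7 did not pass (-0.18 ± 0.23 with adjusted p = 0.64, and -0.26 ± 0.23 with adjusted p = 0.48). The test of the difference between genotypes was not passed by Hoxb5 (adjusted p = 0.082), Hoxb6 (0.068) or Meis1 (0.12).

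Lymphoid priming genes were higher in knockout MPP. Of 26 tested, 18 rose and 1 fell, with a median of 1.51, and rescaled 21 rose with a median of 1.60. Satb1, a chromatin organiser of lymphoid cells, was at 3.93, 5.51 and 3.43 TPM in LT-HSC and 87.7, 105 and 109 TPM in MPP (4.27 ± 0.21, adjusted p = 4.8e-09). Cd52 (3.73) and the interleukin 7 receptor Il7r (1.90) rose. Bcl11a, a transcription factor of B cell development, was at 84.3, 139 and 124 TPM in LT-HSC and 51.6, 80.4 and 82 TPM in MPP and was the member that fell (-0.69 ± 0.23). The Bcl11a call was lost in each of 6 fits that left out 1 library or both of a number, and held without the LT-HSC library of knockout 1. Beside this list, 4 of 11 tested B cell markers rose and 1, the complement receptor Cr2, fell. The count of 4 became 1 without the LT-HSC library of knockout 5 and 2 without that of knockout 1 or 4 or the MPP library of knockout 5. The call of Cr2 was lost without the LT-HSC library of knockout 4 or 5 or the MPP library of knockout 1 or 5.

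Myeloid priming genes were also higher in knockout MPP, with 22 of 29 tested rising and 1 falling, a median of 1.77, and 25 rising with a median of 2.00 rescaled. Irf8, the transcription factor of monocyte and dendritic cell fate, was at 0.966, 1.71 and 1.29 TPM in LT-HSC and 15.9, 18.2 and 25 TPM in MPP (3.14 ± 0.23). Cebpa, the granulocyte-monocyte master regulator, was at 0.17, 0.497 and 0.365 TPM in LT-HSC and 6.98, 7.07 and 8.8 TPM in MPP (2.68 ± 0.21). Plac8 (3.31), Cst7, a cathepsin inhibitor (3.80), and Csf1r, the macrophage colony-stimulating factor receptor (2.91), rose in the same way. Lyz2, the lysozyme of mature myeloid cells, was at 219, 209.6 and 228 TPM in LT-HSC and 122, 119 and 149.8 TPM in MPP and fell (-0.75 ± 0.24, adjusted p = 0.036), a call that was lost after rescaling (adjusted p = 0.11), without both libraries of knockout 1 and without any single library other than the MPP library of knockout 5. Of 13 tested eosinophil, basophil and mast cell markers 4 rose, 1 fell and 8 did not pass, with a list median of only 0.029. Over all genes 3.99% rose and 15.5% fell. Among the rising members was Mcpt8, a basophil protease, at 0.268, 0.278 and 0.0961 TPM in LT-HSC and 9.41, 8.17 and 13.1 TPM in MPP. Cpa3, a mast cell carboxypeptidase, was at 3.4, 4.31 and 4.04 TPM in LT-HSC and 43, 26 and 30.3 TPM in MPP. The rising count of 4 became 2 without the MPP library of knockout 5.

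Cell cycle genes lay higher in knockout MPP, and how many passed turned on the scale. Of 44 tested S phase and DNA replication genes, 10 rose and none fell on the deposited scale with a median of 0.60, against 21 rising and a median of 0.66 in the controls. The shares of all genes called higher on that scale were 3.99% in the knockouts and 15.5% in the controls. The list median lay 0.803 above that of all genes in the knockouts and 0.403 above it in the controls. Rescaled, the order of the genotypes turned, with 36 rising and a median of 0.85 in the knockouts against 11 rising and a median of 0.38 in the controls. The rescaled shares of all genes called higher were 11.6% in the knockouts and 11.2% in the controls. No S phase gene passed the test of the difference between genotypes on either scale. Rrm2, a subunit of ribonucleotide reductase, was at 17, 22.6 and 14.9 TPM in LT-HSC and 41.1, 36.9 and 45.9 TPM in MPP (1.16 ± 0.29, adjusted p = 0.011). Uhrf1, which maintains DNA methylation at replication forks, was at 19.4, 25.7 and 15.5 TPM in LT-HSC and 37, 36.3 and 44.4 TPM in MPP (0.94 ± 0.22). The cell types did not overlap for either gene, and Mcm10 (1.00) and the helicase subunit Mcm4 (0.77) rose by about as much. The deposited count became 18 with same-numbered libraries paired, 1 without the LT-HSC library of knockout 5 or without both libraries of knockout 1, 3 without the MPP library of knockout 1 and 4 without that of knockout 4 or 5. The rescaled count became 22 without both libraries of knockout 1.

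Of 39 tested G2 and M phase genes, 4 rose and none fell on the deposited scale with a median of 0.54, against 19 rising and a median of 0.70 in the controls. Beside these stand shares over all genes called higher of 3.99% in the knockouts and 15.5% in the controls. The list median lay 0.749 above that of all genes in the knockouts and 0.444 above it in the controls. Rescaled the order turned here too, with 30 rising and a median of 0.80 in the knockouts against 12 and a median of 0.40 in the controls. The rescaled shares of all genes called higher were 11.6% in the knockouts and 11.2% in the controls. No G2 and M phase gene passed the test of the difference between genotypes on either scale. Ect2, an exchange factor needed for cytokinesis, was at 3.17, 6.68 and 5.61 TPM in LT-HSC and 15.1, 17 and 17.8 TPM in MPP (1.56 ± 0.22, adjusted p = 0.00013). Kif23, a kinesin of the midbody, was at 11.2, 17.4 and 12.6 TPM in LT-HSC and 23.1, 21.6 and 24.6 TPM in MPP (0.73 ± 0.18). Mki67, the proliferation marker Ki-67, was at 80.6, 125 and 77.6 TPM in LT-HSC and 134, 116 and 137 TPM in MPP, with overlapping cell types and no call on the deposited scale (adjusted p = 0.22). The deposited count was 1 to 8 when a library or both of knockout 1 were left out: 8 without the LT-HSC library of knockout 4, 1 without that of knockout 5 or without both of knockout 1, and 2 without any other single library. The rescaled count was 13 without the LT-HSC library of knockout 5 or the MPP library of knockout 1, 18 without the MPP library of knockout 5 and 9 without both libraries of knockout 1.

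Among 15 tested cyclins and inhibitors of G1, 4 fell and 1 rose, with a median of -0.24 that became 0.02 rescaled, where 2 fell and 4 rose. Beside these counts, 15.5% of all genes fell and 3.99% rose as deposited, and 11.3% and 11.6% rescaled. Cdkn1c, the p57 inhibitor that holds stem cells quiescent, fell from 7.3, 6.42 and 6.78 TPM to 0.645, 0.823 and 0.701 TPM (-2.18 ± 0.22). Cdk6, a G1 kinase that governs exit from quiescence, rose from 75.9, 102 and 106 TPM to 142, 177 and 196 TPM (0.86 ± 0.23). The falling count was 1 or 2 without any library other than the LT-HSC library of knockout 1 and the MPP library of knockout 4, and the rising count 0 without the LT-HSC library of knockout 1, the MPP library of knockout 5 or both libraries of knockout 1. Rescaled, 1 fell without the LT-HSC library of knockout 1 or 4, the MPP library of knockout 1 or 5, or both libraries of knockout 1.

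The 2 main members of the Myc family moved in opposite directions. Mycn was at 22.7, 31 and 33.2 TPM in knockout LT-HSC and 2.85, 3.7 and 3.42 TPM in MPP (-2.78 ± 0.24, adjusted p = 1.3e-06). Myc was at 101, 139 and 117 TPM in LT-HSC and 195, 275 and 333 TPM in MPP (1.14 ± 0.27, adjusted p = 0.0066). The other called member of the 11 tested, the antagonist Mxd1, fell by 0.58 and passed neither rescaled nor without the LT-HSC library of knockout 4 or 5, any MPP library or both libraries of knockout 1. Over all genes, 3.99% were called higher in the knockouts and 15.5% in the controls as deposited. Of 37 tested ribosome biogenesis genes 1 rose on the deposited scale (median 0.32), against 2 in the controls (median 0.38). It was the nucleolar protein gene Nop56, at 148, 181 and 154 TPM in LT-HSC and 260.3, 289 and 275 TPM in MPP, which no fit with a library left out retained. Rescaled, 23 rose with a median of 0.59 and 0 passed in the controls (median 0.09). The rescaled shares of all genes called higher were 11.6% in the knockouts and 11.2% in the controls. No ribosome biogenesis gene passed the test of the difference between genotypes on either scale. This count of 23 was 8 without the LT-HSC library of knockout 5, 10 without the MPP library of knockout 1 and 15 without the LT-HSC library of knockout 4, the MPP library of knockout 5 or both libraries of knockout 1. With same-numbered libraries paired, 4 rose on the deposited scale. Of 40 tested nuclear genes of oxidative phosphorylation, 0 rose and 0 fell on the deposited scale by limma, 2 rose with pairing, 7 rose rescaled and 20 rescaled with pairing, with medians of 0.17 and 0.45 on the scales as deposited and rescaled. That count of 7 became 12 without the LT-HSC library of knockout 1 or control LT-HSC library 2, 2 without the LT-HSC library of knockout 5, and 3 without the LT-HSC library of knockout 4, the MPP library of knockout 1 or 5, or both libraries of knockout 1.

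**Figure D3:**
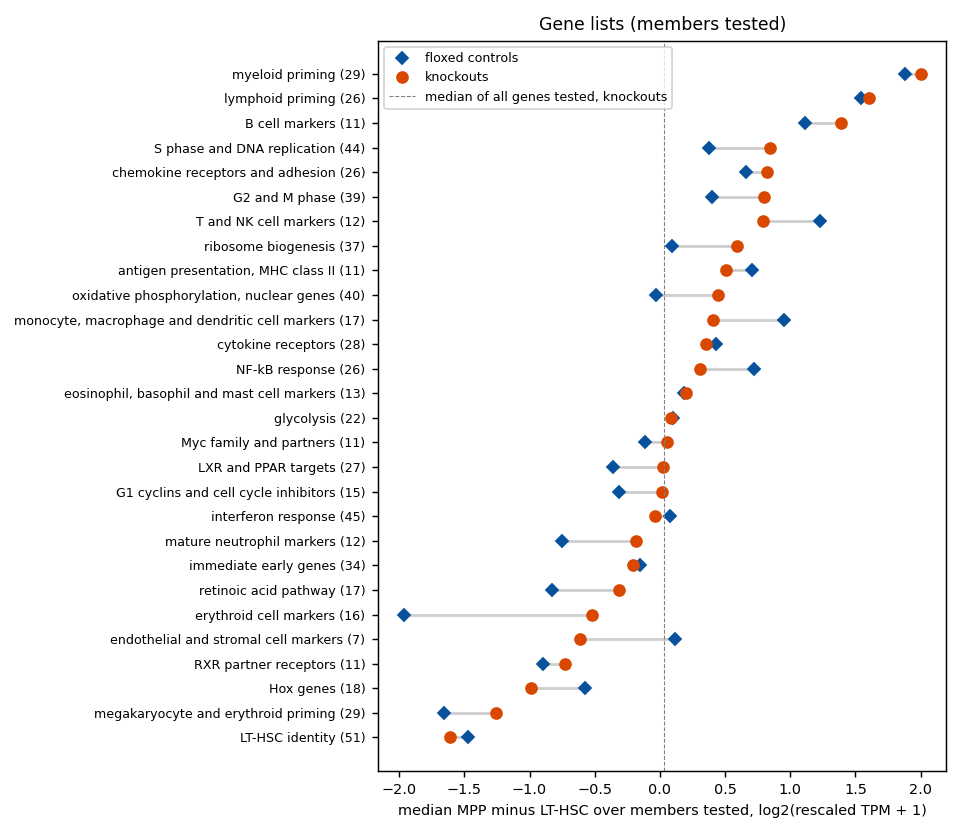
Each of 28 gene lists has a point for the median log2 difference of MPP minus LT-HSC in the knockouts and another for the floxed controls, on rescaled TPM, and a dashed line marks the knockout median over all 14839 genes. LT-HSC identity (-1.61) and megakaryocyte and erythroid priming (-1.26) lie lowest in the knockouts and myeloid priming (2.00) and lymphoid priming (1.60) highest.

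The retinoic acid pathway and the receptors that pair with RXR were read out in cells in which RXR itself was the target. Of 17 tested retinoic acid pathway genes, 8 fell and 1 rose in knockout MPP, with a median of -0.46, and 7 fell after rescaling. Besides Aldh1a1, Cd38, an NAD-consuming enzyme induced by retinoic acid, was at 3.73, 4.27 and 5.16 TPM in LT-HSC and 0.539, 0.752 and 0.96 TPM in MPP (-1.62 ± 0.22, adjusted p = 9.1e-05). Rarg, the retinoic acid receptor linked to stem cell self-renewal, was at 7.32, 10.1 and 14.2 TPM in LT-HSC and 3.66, 2.79 and 4.06 TPM in MPP (-1.32 ± 0.24). The gene that rose was Dhrs3, a reductase that turns retinal back into retinol, at 12.9, 14.8 and 18.8 TPM in LT-HSC and 33.8, 29.1 and 29.5 TPM in MPP (0.96 ± 0.18, adjusted p = 0.0011), against a control difference of 2.27 (adjusted p of the genotype-by-cell-type term 0.062). Rara, the retinoic acid receptor alpha, was at 8.39, 5.48 and 5.7 TPM in LT-HSC and 6.86, 7.24 and 7.09 TPM in MPP and did not pass (adjusted p = 0.75). In the controls 8 genes of the list fell and 4 rose as deposited (median -0.58). Rescaled, 11 fell in the controls (median -0.83), against a rescaled knockout median of -0.31. Of all genes, 15.5% fell in the knockouts and 5.62% in the controls as deposited, and 11.3% and 12.7% rescaled. No gene of the list passed the test of the difference between genotypes on either scale.

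Of the 11 tested RXR partner receptors, 7 fell and none rose, with a median of -0.91, and 6 fell rescaled with a median of -0.73. In the controls 4 fell and 1 rose as deposited (median -0.59), and 6 fell and 1 rose rescaled (median -0.89). The shares of all genes called lower were 15.5% in the knockouts and 5.62% in the controls as deposited, and 11.3% and 12.7% rescaled. No partner receptor passed the test of the difference between genotypes on either scale. Vdr, the vitamin D receptor, was at 18.7, 18.7 and 25.3 TPM in knockout LT-HSC and 4.52, 3.67 and 5.31 TPM in MPP (-1.99 ± 0.21, adjusted p = 8.4e-06). Nr4a2, an orphan receptor, was at 106, 65.2 and 66.9 TPM in LT-HSC and 18.9, 27.2 and 16.3 TPM in MPP (-1.88 ± 0.32), with no overlap between cell types. Thrb, a thyroid hormone receptor, at 1.76, 1.66 and 1.66 TPM in LT-HSC and 0.319, 0.222 and 0.512 TPM in MPP, and Nr1h3, the liver X receptor alpha (-0.91), fell from levels below 2 TPM.

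Targets of the liver X and peroxisome proliferator-activated receptors did not move together. Of 27 tested, 8 fell and 3 rose on the deposited scale, 6 fell and 5 rose rescaled, and the list median turned from -0.24 to 0.03. Beside these counts, 15.5% of all genes fell and 3.99% rose as deposited, and 11.3% and 11.6% rescaled. Apoe, the lipid carrier, was at 195, 175 and 172 TPM in LT-HSC and 28.1, 23.4 and 35.6 TPM in MPP (-2.62 ± 0.32, adjusted p = 2.8e-05). Angptl4, an inhibitor of lipoprotein lipase, was at 2.45, 2.85 and 2.16 TPM in LT-HSC and 5.89, 5.83 and 6.79 TPM in MPP and rose (1.04 ± 0.20). Abca1, the cholesterol exporter, passed on the deposited scale (-0.84 ± 0.23, adjusted p = 0.016) and not rescaled (0.10), and its relative Abcg1 had -0.12 ± 0.22 (adjusted p = 0.76). The falling count became 4 without the LT-HSC library of knockout 4 and 5 without that of knockout 5. The rising count became 1 without the LT-HSC library or the MPP library of knockout 5, or without both of knockout 1. Rescaled, 3 fell without the MPP library of knockout 5 and 3 rose without both libraries of knockout 1.

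Inflammatory genes of the NF-kB response rose in knockout MPP in 9 of 26 tested cases and fell in 2, with a median of 0.12, and rescaled 11 rose with a median of 0.31. Ccl4, a chemokine related to Ccl3, was at 25.5, 18.2 and 11.4 TPM in LT-HSC and 433, 359 and 250.1 TPM in MPP (4.20 ± 0.32). Tnf, the cytokine, was at 2.24, 2.34 and 1.34 TPM in LT-HSC and 23.6, 33.6 and 19.3 TPM in MPP (3.14 ± 0.26). Tnfaip3, the A20 brake on NF-kB, was at 15.8, 25.5 and 15.1 TPM in LT-HSC and 55, 108 and 65.1 TPM in MPP. Traf1 (-1.82) and Tnfaip2 (-1.61) went the other way. In the controls 17 of the NF-kB genes rose and 1 fell, with a median of 1.0, and rescaled 15 rose with a median of 0.725. The shares of all genes called higher as deposited were 3.99% in the knockouts and 15.5% in the controls. Cd83, described below, was the only NF-kB list member that passed the test of the difference between genotypes. Of 34 tested immediate early genes, 8 fell and 1 rose in knockout MPP. The falls were led by Ccn1 (-2.62), Klf9 (-1.67) and Klf4 (-1.25), while Fos had -0.29 ± 0.31 (adjusted p = 0.56). The falling count was 13 with same-numbered libraries paired and 5 rescaled, without the MPP library of knockout 5 or without both libraries of knockout 1. The rescaled count of 5 became 3 without the LT-HSC library of knockout 1 or 4 or the MPP library of knockout 5. The shares of all genes called lower in the knockouts were 15.5% as deposited and 11.3% rescaled. In the controls 10 immediate early genes rose and 3 fell as deposited (median 0.147), and 7 rose and 4 fell rescaled (median -0.155). No immediate early gene passed the test of the difference between genotypes.

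Interferon response genes were split. Of 45 tested, 14 fell and 5 rose, with a median of -0.31 that became -0.04 after rescaling, where 12 fell and 7 rose. Oasl1 was at 6.51, 5.51 and 3.37 TPM in LT-HSC and 49.5, 57.3 and 29.3 TPM in MPP (2.90 ± 0.37) and Rsad2, the antiviral protein viperin, at 13.3, 11.3 and 11.6 TPM and 43.7, 67.4 and 32.8 TPM (1.85 ± 0.30). In the other direction, Iigp1, an interferon-inducible GTPase, was at 16.1, 18.9 and 19.2 TPM in LT-HSC and 4.05, 4.87 and 3.65 TPM in MPP (-1.88 ± 0.22), and the nucleic acid sensors Zbp1 (-1.30) and Ifih1 (-1.13) fell. The falling count was 8 without the LT-HSC library of knockout 4 or 5 or the MPP library of knockout 1, and 9 without the MPP library of knockout 5. The rising count was 2 or 3 without both libraries of knockout 1 or any single library other than the LT-HSC library of knockout 1 and the MPP library of knockout 5. Rescaled, 5 fell without the MPP library of knockout 5, 6 without both libraries of knockout 1 and 7 without the LT-HSC library of knockout 1. Of all genes, 15.5% fell and 3.99% rose in the knockouts as deposited, against 5.62% and 15.5% in the controls. In the controls 14 interferon genes rose and 3 fell as deposited (median 0.352), and 10 rose and 10 fell rescaled (median 0.078). No interferon gene passed the test of the difference between genotypes.

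Surface receptors changed in both directions. Of 26 tested chemokine receptors and adhesion genes, 11 rose and 5 fell, with a median of 0.56, and rescaled 15 rose and 4 fell. The integrin chain Itgal was at 1.53, 2.41 and 2.64 TPM in LT-HSC and 22.7, 21.8 and 28.6 TPM in MPP (3.00 ± 0.20). Cd244a, a SLAM family receptor used to separate progenitors, was at 0.317, 0.909 and 0.553 TPM in LT-HSC and 7.3, 10.3 and 12.1 TPM in MPP (2.77 ± 0.20). Itgb3, the chain that marks platelet-biased stem cells, went from 20.2, 27 and 37.7 TPM to 2.35, 2.8 and 4.03 TPM (-2.83 ± 0.23). Of 28 tested cytokine receptors, 8 rose and 5 fell, and rescaled 10 rose and 4 fell. The falling shares as deposited, 19.2% of the adhesion list and 17.9% of the cytokine receptors, were near the 15.5% of all genes. Of all genes 3.99% rose as deposited, and rescaled 11.6% rose and 11.3% fell. The interleukin 1 receptor Il1r1 rose from 4.65, 5.22 and 5.19 TPM to 17.7, 20.1 and 20.1 TPM, and the angiopoietin receptor Tek fell from 25.2, 26.1 and 34.9 TPM to 3.42, 5.46 and 3.76 TPM.

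Antigen presentation was read from 11 tested MHC class II genes. On the deposited scale 2 rose in the knockouts with a median of 0.26 and 9 rose in the controls with a median of 1.01, beside shares over all genes called higher of 3.99% and 15.5%. Rescaled, 5 rose with a median of 0.51 in the knockouts and 8 with a median of 0.70 in the controls. With same-numbered libraries paired 3 rose and 1 fell, and in the paired fit of the 6 knockout libraries alone 5 rose and 4 fell. H2-Ob, a modulator of peptide loading, was at 3.37, 6.45 and 4.76 TPM in LT-HSC and 21.8, 24.6 and 19.3 TPM in MPP (1.99 ± 0.26). H2-Aa was at 89.8, 89 and 74.4 TPM in LT-HSC and 51.4, 69.6 and 56.5 TPM in MPP (-0.51 ± 0.27, adjusted p = 0.22), whereas in the controls its log2 difference was 1.01 (adjusted p = 0.017). The genotype difference of H2-Aa itself did not pass (-1.52 ± 0.38, adjusted p = 0.089). The summed B cell markers in knockout MPP lay partly below those of control MPP (2190 to 12300 TPM). The monocyte, macrophage and dendritic cell sum lay wholly below its control MPP values (761 to 918 TPM). That list itself holds H2-Aa, H2-Ab1, H2-Eb1 and Cd74, so its sum is not independent of the MHC class II genes. The count of 2 became 1 without the LT-HSC library of knockout 1 or 5 or the MPP library of knockout 4 or 5. The rescaled count of 5 became 3 without the LT-HSC library of knockout 4 or 5, the MPP library of knockout 1 or 5, or both libraries of knockout 1.

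Of 22 tested glycolysis genes 5 fell and 2 rose, beside 15.5% and 3.99% of all genes, with a median of -0.14 that became 0.08 rescaled, where 5 fell and 4 rose. Ldhb, a lactate dehydrogenase chain, was at 42, 42.9 and 33.8 TPM in LT-HSC and 10.8, 12.9 and 12.9 TPM in MPP (-1.62 ± 0.29). Pgam1, a mutase of lower glycolysis, was at 49.2, 45.4 and 38.5 TPM in LT-HSC and 83.5, 89.4 and 110.1 TPM in MPP (1.07 ± 0.22). The count of 5 became 2 without the LT-HSC library of knockout 4 and 3 without the MPP library of knockout 1 or both libraries of knockout 1. The count of 2 became 1 without the LT-HSC library of knockout 1 or 4 or the MPP library of knockout 4 or 5. Rescaled, the rising count of 4 became 7 without the LT-HSC library of knockout 1 and 2 without the LT-HSC library of knockout 4 or 5 or the MPP library of knockout 1 or 5. The rescaled falling count of 5 became 2 without both libraries of knockout 1 and 3 without the LT-HSC library of knockout 5 or the MPP library of knockout 1 or 5.

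Most of the differences called in the floxed controls had the same sign in the knockouts. Of 834 genes lower in control MPP on the deposited scale (5.62% of all tested), 742 (89.0%) were also called lower in the knockouts, none was called higher, and 99.0% had the same sign. Of 2305 genes higher in control MPP (15.5%), 528 (22.9%) were also called higher in the knockouts, 12 were called lower, and 70.3% had the same sign. Rescaled, the 2 directions were more even: 1164 of 1882 lower genes (61.8%) and 875 of 1664 higher genes (52.6%) were called in the same direction in the knockouts, where 11.3% of all genes were called lower and 11.6% higher. In the controls these shares were 12.7% and 11.2%. The opposite call was made for 2 and 3 of them, and 94.2% and 88.5% had the same sign. Seen from the knockouts on the deposited scale, 528 of their 592 higher genes (89.2%) and 742 of their 2297 lower genes (32.3%) were called in the same direction in the controls. Rescaled, these were 875 of 1724 (50.8%) and 1164 of 1680 (69.3%). The 3139 calls of the controls became 1784 without MPP library 1 and 1834 without MPP library 2. A call in 1 genotype and not in the other is no test of a difference between them. Over the 14839 genes, which are not independent replicates, the knockout and control differences had a Pearson correlation of 0.79 as deposited and 0.78 rescaled; the contrasts share no library.

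The test of the difference between genotypes called 12 genes on the deposited scale, 0.0809% of those tested, against 3891 (26.2%) at an unadjusted p under 0.05, with the median interaction over all genes at -0.45. Rescaled, that median was 0.04 and 4 genes were called, all of them among the 12: Gda, Cd83, Gm11011 and Olfr632. The block for library numbers gave 1342 genes on the deposited scale (9.04%) and 0 rescaled by limma (2639, 17.8%, at an unadjusted p under 0.05), and leaving out any 1 knockout library after rescaling left 0 or 1. Without the LT-HSC library of knockout 1 the deposited count was 1905, and without LT-HSC library 1 of the controls it was 847. It was 38 without control LT-HSC library 3, 9 without the MPP library of knockout 1, and 2 to 6 without any other single library.

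Gda, guanine deaminase (ENSMUSG00000058624, chr19:21391307-21472661), lacked in the knockouts the decrease it had in the controls. It was at 15.4, 14.2 and 8.47 TPM in control LT-HSC and 0.439, 0.469 and 1.3 TPM in control MPP, and at 0.551, 1.6 and 3.04 TPM in knockout LT-HSC and 1.47, 1.16 and 2.71 TPM in knockout MPP. Only control LT-HSC stood above the other 3 groups, and the interaction was 3.07 ± 0.47 (adjusted p = 0.025). Cd83, a membrane protein of activated and antigen-presenting cells (chr13:43785112-43803133), was at 0.242, 0.189 and 0.099 TPM in control LT-HSC and 3.87, 3.46 and 2.85 TPM in control MPP, and at 0.0672, 0.303 and 0.0652 TPM and 0.204, 0.423 and 0.207 TPM in the knockouts. It was above 1 TPM in control MPP alone (interaction -1.74 ± 0.26, adjusted p = 0.025). Gm11011, a predicted gene, was at 4.58, 4.08 and 3.88 TPM and 25.6, 17.7 and 16.6 TPM in control LT-HSC and MPP and at 12.4, 11.2 and 18 TPM and 9.6, 7.59 and 8.13 TPM in the knockouts, so that MPP lay above LT-HSC in the controls and below it in the knockouts. The olfactory receptor gene Olfr632 was listed at 0 in control MPP, at 1.13, 1.27 and 1.52 TPM in control LT-HSC and at 9.01, 13.6 and 16.8 TPM in knockout LT-HSC against 0.0269, 0 and 0.179 TPM in knockout MPP, and reads of such gene families can be shared between relatives.

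**Figure D4:**
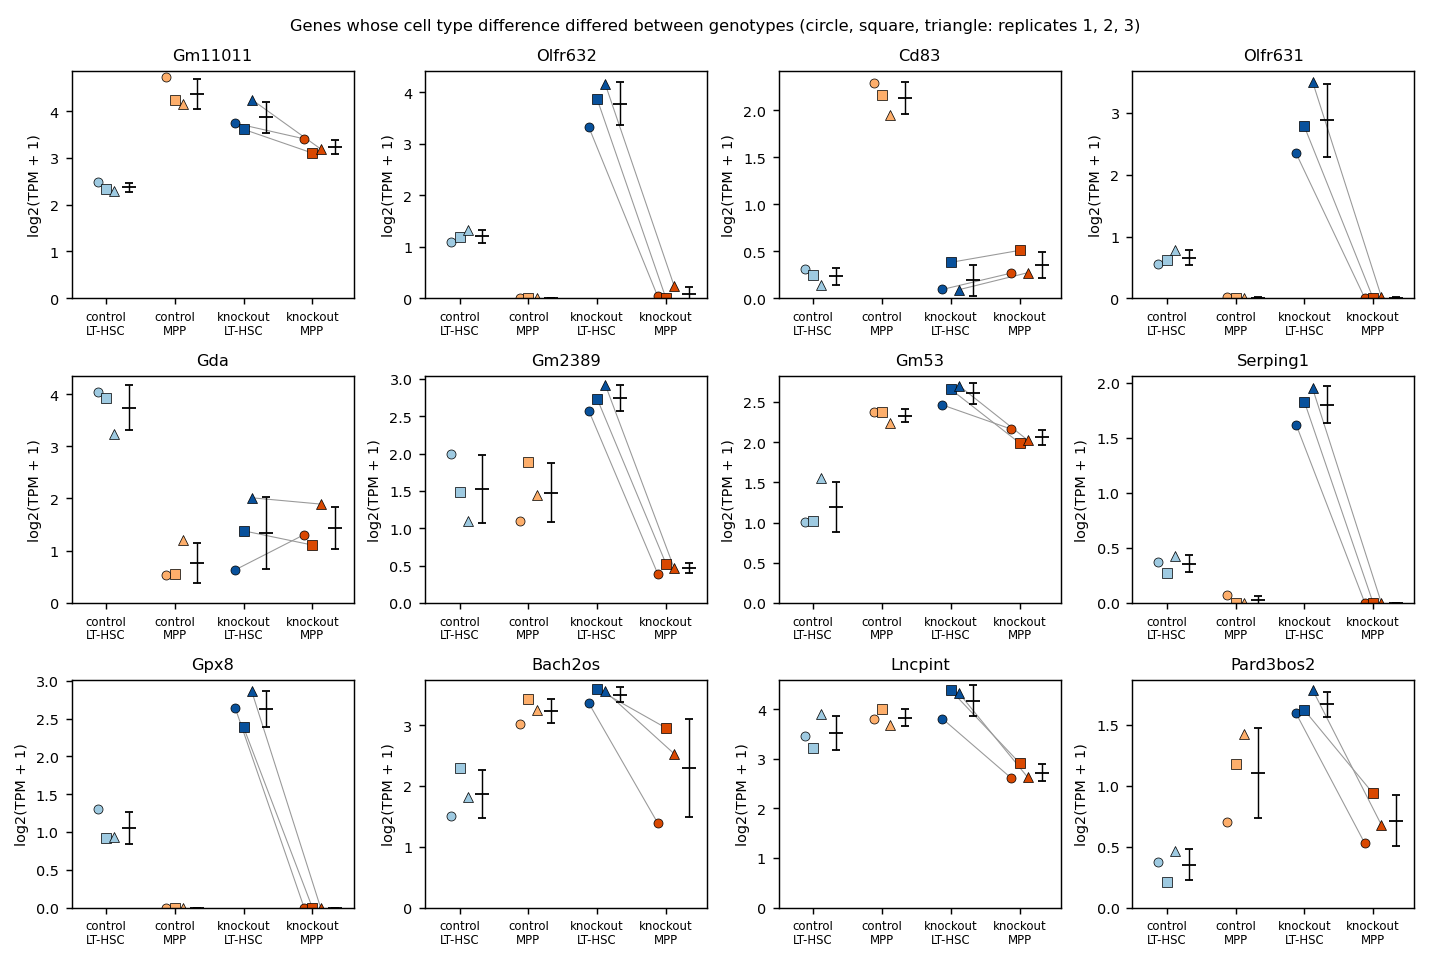
The TPM of the 12 genes that passed the genotype-by-cell-type test on the deposited scale is plotted per library on a log2(TPM + 1) axis for both cell types and both genotypes. Gda is high in control LT-HSC only, Cd83 in control MPP only, and Olfr632 is highest in knockout LT-HSC.

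No pathway gene of the retinoic acid, partner receptor or liver X and peroxisome proliferator-activated receptor lists was among those 12. Genes that went up in the interaction without passing included Car1 (2.79, adjusted p = 0.1), an erythroid carbonic anhydrase at 14.7, 11.8 and 81.8 TPM in control LT-HSC and 2.5, 7.77 and 2.5 TPM in knockout LT-HSC, and Pklr, the red cell pyruvate kinase (1.90, adjusted p = 0.1). Both lay beside erythroid marker sums that reached 936 TPM in control LT-HSC and 537 TPM in knockout LT-HSC, and the part of those cells in the values was not tested.

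Splicing was read from the PSI of 39715 events with a value in all 12 libraries, and calls between knockout LT-HSC and MPP took the highest share of events tested among alternative first exons, of the 3 kinds counted below. An event was called at a limma adjusted p under 0.05 with a mean PSI difference of at least 0.1, and 121 events in 79 genes passed, 0.305% of those tested, 59 with a higher (0.149%) and 62 with a lower PSI in MPP (0.156%), while 3147 (7.92%) had an unadjusted p under 0.05. Mirror-image events of the same junctions count once as 91. Alternative promoter events passed in 25 of 1063 cases (2.35%), cassette exons in 12 of 6484 (0.185%) and intron retention in 72 of 23996 (0.3%). Fitted with a block for library numbers no event passed, against 3332 (8.39%) at an unadjusted p under 0.05. Without the LT-HSC library of knockout 1 the count was 301. The file gives no reads behind a PSI: 58 of the 72 called intron retention events, which hold both the spliced and the intron-reading junctions, had a knockout group at exactly 0 or 1 in every library, as had 4 of the other 49, so alternative first exons are described first. In the controls 193 events passed (0.486%), 36 events were called in the same direction in both genotypes and 1, in Myo1f, in opposite directions.

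The called alternative promoter events lay in 14 genes, and 17 of the 25 were also called in the same direction in the controls. Of these genes, 9 had a RefSeq start within 1000 bases upstream of the junction's donor, which gave 10 distinct windows of 250 bases ending just before the start. Those of the genes that differed most are shown on the transcribed strand, from RefSeq on GRCm38, with CpG dinucleotides in capitals since their number sets apart the usual types of promoter.
Mllt3 first start, minus strand, chr4:88033408-88033657: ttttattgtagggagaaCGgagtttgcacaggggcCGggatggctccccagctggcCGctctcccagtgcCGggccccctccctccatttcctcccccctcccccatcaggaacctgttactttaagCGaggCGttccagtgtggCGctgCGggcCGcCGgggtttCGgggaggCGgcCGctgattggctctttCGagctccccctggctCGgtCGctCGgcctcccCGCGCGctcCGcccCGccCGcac
Mllt3 internal start, minus strand, chr4:87806324-87806573: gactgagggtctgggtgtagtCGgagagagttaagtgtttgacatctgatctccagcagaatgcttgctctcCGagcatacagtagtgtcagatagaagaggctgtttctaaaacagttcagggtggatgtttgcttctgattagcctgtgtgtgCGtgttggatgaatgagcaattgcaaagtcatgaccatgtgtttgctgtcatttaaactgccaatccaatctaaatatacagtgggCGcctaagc
Acot7, plus strand, chr4:152185358-152185607: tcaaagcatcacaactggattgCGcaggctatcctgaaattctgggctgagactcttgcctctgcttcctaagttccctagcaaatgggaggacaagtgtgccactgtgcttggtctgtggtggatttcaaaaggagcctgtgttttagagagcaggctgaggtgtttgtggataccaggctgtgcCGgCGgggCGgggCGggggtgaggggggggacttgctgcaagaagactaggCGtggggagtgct
Phactr2, minus strand, chr10:13324290-13324539: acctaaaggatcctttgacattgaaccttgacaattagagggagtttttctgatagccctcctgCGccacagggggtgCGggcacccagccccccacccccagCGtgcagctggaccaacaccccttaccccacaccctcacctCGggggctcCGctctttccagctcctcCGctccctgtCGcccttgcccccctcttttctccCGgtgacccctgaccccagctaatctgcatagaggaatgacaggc
Pik3r1, minus strand, chr13:101692631-101692880: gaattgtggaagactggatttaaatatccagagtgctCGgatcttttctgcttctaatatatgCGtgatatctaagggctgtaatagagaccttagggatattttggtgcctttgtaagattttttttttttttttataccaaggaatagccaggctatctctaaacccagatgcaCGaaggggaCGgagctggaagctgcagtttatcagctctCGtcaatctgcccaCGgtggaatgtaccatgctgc
Mgst2, plus strand, chr3:51660929-51661178: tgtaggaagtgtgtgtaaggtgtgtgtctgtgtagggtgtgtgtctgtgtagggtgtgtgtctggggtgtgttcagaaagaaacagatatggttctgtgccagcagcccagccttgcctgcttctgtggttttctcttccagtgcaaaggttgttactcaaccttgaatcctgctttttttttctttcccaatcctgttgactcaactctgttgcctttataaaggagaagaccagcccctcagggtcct

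Mllt3, lower as a gene in MPP, also changed its start. The junction leaving the internal first exon, chr4:87794011-87806211, had a PSI of 0.432, 0.428 and 0.518 in knockout LT-HSC and of 0.0154, 0.0167 and 0.0341 in knockout MPP. The internal start held a large share of the alternatives in every LT-HSC library and almost none in MPP, a difference of -0.437 (adjusted p = 0.00052). In the controls the values were 0.507, 0.527 and 0.565 in LT-HSC and 0.0111, 0.0441 and 0.0213 in MPP. The internal window held 4 CpG and 45.2% G or C, the window of the first start 23 CpG and 69.2%, and the median over 32851 RefSeq windows was 6 CpG and 52.4%. The window of the first start was matched to called junctions that moved in opposite directions. From donor 88033084 the mean PSI was 0.558 in knockout LT-HSC and 0.886 in knockout MPP, and from donor 88032637 it was 0.421 and 0.0935. That window can therefore not be assigned to either cell type.

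Acot7, an acyl-CoA thioesterase, used the junction from the shown start, chr4:152186385-152206764, at a PSI of 0.632, 0.646 and 0.565 in knockout LT-HSC and 0.0185, 0.143 and 0.0816 in MPP (-0.533, adjusted p = 0.0037). Phactr2, a phosphatase and actin regulator, used the junction from the shown start at 0.762, 0.5 and 0.587 in LT-HSC and 0.179, 0.151 and 0.104 in MPP. Pik3r1, the regulatory subunit of PI3-kinase, used the shown start at 0.358, 0.319 and 0.345 in LT-HSC and 0.0379, 0.0303 and 0.0293 in MPP (-0.308, adjusted p = 0.0016). In each of these 3 genes the shown start was used more in LT-HSC than in MPP, the windows held 6, 8 and 6 CpG, and no MPP library reached the lowest LT-HSC library. Mgst2, a glutathione transferase of the membrane, ran the other way, with the shown start at 0.175, 0.167 and 0.256 in LT-HSC and 0.633, 0.895 and 0.805 in MPP (0.578, adjusted p = 0.03) and no CpG in its window.

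Arhgef3, a guanine nucleotide exchange factor with 15 CpG before its start, kept most of its use of that start, at 0.95, 0.974 and 0.942 in LT-HSC and 0.591, 0.654 and 0.603 in MPP (adjusted p = 0.0025). Pde4d, a cyclic AMP phosphodiesterase, was at 0 in all 3 knockout LT-HSC libraries and at 0.218, 0.26 and 0.29 in MPP. Tet1, which oxidises 5-methylcytosine, was at 0.157, 0.172 and 0.217 in LT-HSC and 0.647, 0.51 and 0.507 in MPP (0.373, adjusted p = 0.007), against a difference of 0.072 in the controls that was not shown to differ from it (adjusted p of the genotype-by-cell-type term 0.19).

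Letters of known binding motifs were counted in the 10 windows on both strands. The nuclear receptor half-site AGGTCA, present in 14.0% of all RefSeq windows, and the GATA motif AGATAA, present in 9.99%, were in none of them. The RUNX motif TGTGGT (14.0% of all windows) was in those of Acot7 and Mgst2, and the ETS motif AGGAAG (29.5%) in those of Acot7, Mgst2 and Ccser2. None of the 4 motifs contains another, and a match or its absence describes only these letters in these windows.

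**Figure D5:**
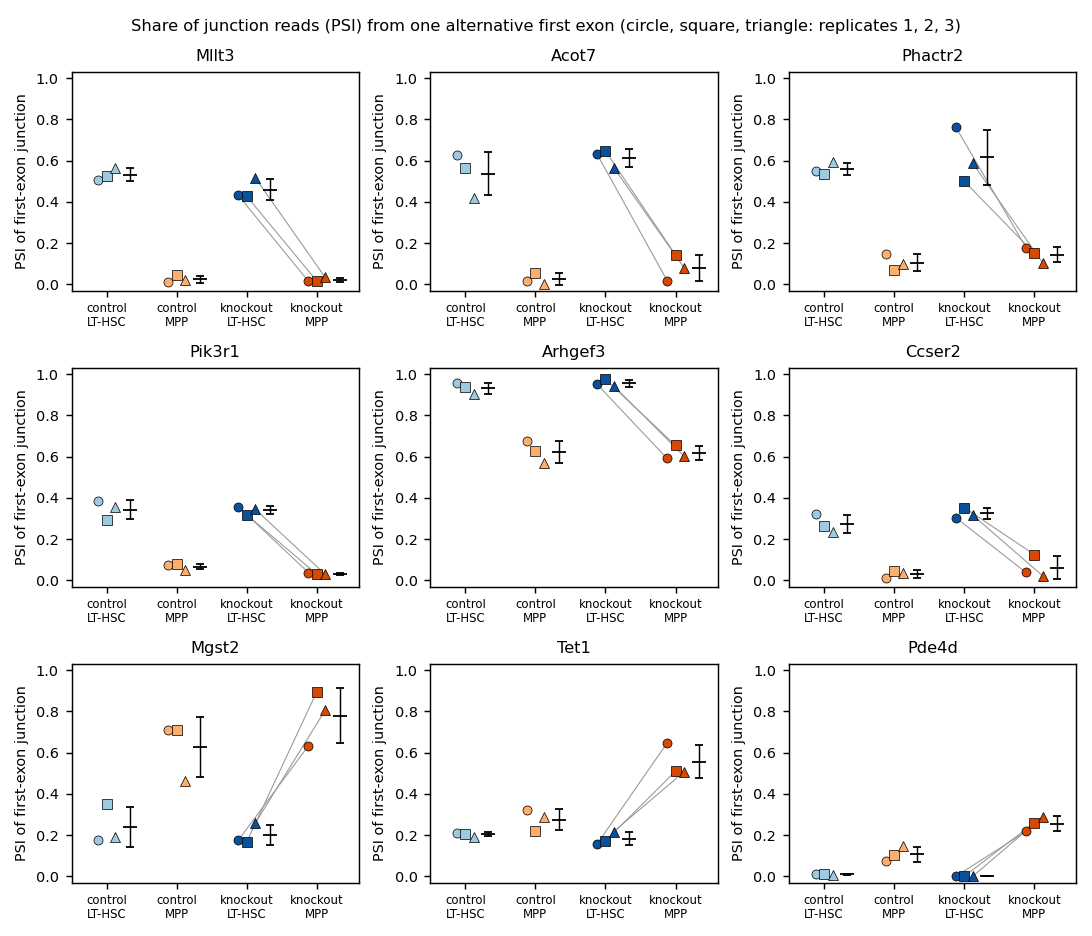
PSI of 1 alternative first exon junction in each of 9 genes is plotted per library on an axis from 0 to 1 for both cell types and both genotypes. Mllt3, Acot7, Phactr2 and Pik3r1 drop from LT-HSC to MPP in the knockouts and Mgst2, Tet1 and Pde4d go up, with no overlap between the knockout cell types.

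Outside first exons, events of other kinds were called. In Med12l, a Mediator subunit gene, an event given no type had a PSI of 0.861, 0.777 and 0.939 in knockout LT-HSC and 0.25, 0.257 and 0.361 in MPP (adjusted p = 0.0013). In Nfkb2, an NF-kB subunit gene, the spliced junction of an intron, chr19:46307718-46307956, was at 1 in all 3 knockout LT-HSC libraries and at 0.222, 0.55 and 0.37 in MPP, where the junction that reads into the intron was at 0.529, 0.353 and 0.5 against 0 in knockout LT-HSC, while its TPM did not pass (4.26, 4.87 and 4.03 in LT-HSC and 4.79, 5.53 and 4.51 in MPP, adjusted p = 0.61). Il18bp, the decoy receptor of interleukin 18, had the junction that reads out of an intron at 0.0793, 0.111 and 0.0642 in LT-HSC and 0.621, 0.538 and 0.628 in MPP. The test of the difference between genotypes called 30 events (0.0755%), 29 of them intron retention events, each of these 29 with a group at exactly 0 or 1.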

How the data were processed

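RNA-seq libraries of the first batch were used as deposited. TPM per gene were made by the authors with kallisto, and reads were aligned to mm10 with STAR 2.6, per the submitters' processing notes. The splicing file holds PSI as a fraction per event, deposited by the authors; no source names its caller, its read support or its use of strand, and read depth is unknown because neither file gives counts. Of 28987 identifiers, 27458 (94.73%) had a symbol in the table of gene names; positions are GRCm38, and promoter windows come from RefSeq.

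Each contrast was a group-means model over the 12 libraries in limma 3.58.1 (R 4.3.3), with an intensity trend, on log2(TPM + 1) of genes at 1 TPM or more in at least 3 libraries. A fold change on this scale understates that of low genes. PSI was fitted without a trend. P-values were adjusted by Benjamini-Hochberg over all genes or events, and a gene or event passed under 0.05, events also with a difference of at least 0.1. Rescaling divided TPM by median-of-ratios size factors. The fits of the knockout contrast were tested on simulated data with independent normal noise. That simulation held no scale differences between libraries, no pairing and no bounds on PSI. It therefore could not test how these affect the calls, and the genotype-by-cell-type term was not scored in it. In same-numbered knockout libraries the deviations from the group means correlated at 0.539, 0.155 and 0.256 (different numbers, -0.388 to 0.207) and in the controls at 0.065, 0.101 and 0.106. With every knockout pair above 0.1 the numbers were taken to pair the knockout libraries; the labels do not say what a number stands for. Pairing was an alternative fit, and the main counts and p-values came from the fit without it. With pairing over all 12 libraries, 3852 genes passed in the knockout contrast in place of 2889, and 0 splicing events in place of 121. The splicing calls and their p-values given here thus hold for the unpaired fit only.

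The members and the 28 gene lists were chosen with earlier results of these data known. Named were the markers and targets, the 10 largest changes each way among genes that passed on both scales, lay on 1 side in all 3 pairs and reached 5 TPM in the higher group, up to 4 members of each list by p with members whose role called for a value, the interaction genes ranked first by p, and 8 splicing events. Counts by library left out, pairing and scale are given in the closing section. The other 9 libraries were not used. A few genes and events that the rule names are not reported here.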

Additional observations from a re-analysis of the deposited data

Results flagged for a closer look

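The difference between MPP and LT-HSC depended on genotype, by the test of that difference in limma, for 12 genes on deposited TPM. The interaction, knockout minus control, was 3.07 for Gda, the 1 gene with a positive value, and -1.74 for Cd83, -2.63 for Gm11011 and -2.49 for Olfr632. These 4 also passed after rescaling (3.53, -1.66, -2.12 and -1.99, adjusted p between 0.028 and 0.043).

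The other 8 passed on deposited TPM only. Serping1, the complement C1 inhibitor, had -1.46, with 0.296, 0.211 and 0.341 TPM in control LT-HSC, 0.0481, 0 and 0 in control MPP, 2.07, 2.55 and 2.86 in knockout LT-HSC and 0 in each in knockout MPP. Gpx8, a peroxidase of the endoplasmic reticulum, had -1.58 and was listed at 0 in MPP of both genotypes, with 1.46, 0.89 and 0.912 TPM in control LT-HSC and 5.23, 4.23 and 6.26 TPM in knockout LT-HSC, so its fitted value depends on the pseudocount. Lncpint, a long noncoding RNA, had -1.76, being at 13, 19.9 and 19 TPM in knockout LT-HSC and 5.11, 6.56 and 5.17 TPM in knockout MPP against 9.95, 8.28 and 13.9 and 12.9, 15.1 and 11.8 TPM in the controls. The remaining values were -2.23 for Olfr631, -2.23 for Gm2389, -1.68 for Gm53, -2.57 for Bach2os and -1.71 for Pard3bos2. Bach2os and Pard3bos2 are antisense genes, whose reads cannot be told from those of their partners without strand.

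In Mknk1, a MAP kinase-interacting kinase, 2 mirror-image events of 1 intron passed the test of the difference between genotypes in the fit without pairing. The spliced junction, chr4:115864612-115866462, was at 1 in all 9 libraries other than knockout LT-HSC, where it was at 0.357, 0.385 and 0.262, an interaction of 0.665 (adjusted p = 0.0016). Its counterpart, the junction that reads out of the intron at chr4:115866266-115866267, was at 0.516, 0.474 and 0.667 in knockout LT-HSC and at 0 in the other 9 libraries, an interaction of -0.552 (adjusted p = 0.014). The number of reads behind these values is not given. The other 3 groups had an SD of 0, so among the groups only knockout LT-HSC gave these fits a spread between libraries. The p-values are thus no measure of the spread in the other groups. With a block for library numbers neither event passed (limma adjusted p = 0.23 and 0.29).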

How the results depend on the processing

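Depth is unknown, 3 libraries a group limit the precision, and rescaling moved the median knockout difference over all genes from -0.21 to 0.03. The knockout contrast called 2889 genes, 1825 to 3482 with 1 library left out, 2142 to 3287 rescaled with 1 left out, 1795 with a minimum of 5 TPM, 1429 with an absolute log2 change of at least 1, and 6125 when the 6 knockout libraries were fitted alone with a replicate block. With the replicate block over all 12 libraries it called 3852. The control contrast called 3139, 1380 with an absolute log2 change of at least 1, and 1784 to 3816 with 1 library left out.

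The interaction called 12 genes, 4 rescaled, 0 without the largest identifier, 3 by quantile scaling, 3 with a pseudocount of 0.1, 22 without a filter, 1 at 5 TPM, 1342 with the replicate block and 2 to 1905 with 1 library left out. Alternatives added after seeing the data gave 0 rescaled with the replicate block, 113 without both libraries of knockout 1, 1 rescaled without these or without control LT-HSC library 2, and 0 to 1 rescaled with 1 knockout library left out. The cause of these differences was not tested.

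Splicing calls in the knockouts went from 121 to 0 with the replicate block and 105 to 301 with 1 library left out. Their interaction went from 30 to 116 on an arcsine scale, 46 with 2 values a group required, 0 with the replicate block, and 11 to 154 with 1 library left out. Of the values under alternatives of the markers, the targeted genes and the 10 largest changes each way, 548 in the knockout contrast stayed on their side of the threshold and 1, for Rxra, newly passed; other named genes are not in this count. For the genes named for the genotype-by-cell-type term 245 stayed, 216 no longer passed and 4 newly passed.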
